A study of Mus musculus with 8 samples.

Results

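The 9 genes described here belong to the IL-33 receptor and type 2 immune programme: Il1rl1, Areg, Gata3, Gata2, Il13, Il4ra, Stat6, Il3 and Nfil3. They were chosen by name, with the levels in both media already known, out of 754 genes measured in mouse splenic CD8 T cells. All 9 were found in the deposited table. The cells were exposed for 48 hours to medium that had been conditioned for 48 hours by B16F10 melanoma cells, a mouse tumour line. In all, 2 groups of 4 samples were compared. In the KO medium group the tumour cells that conditioned the medium carried a knockout of SSBP4, and in the WT medium group they were wild type for SSBP4. The T cells themselves came from C57BL/6 spleens in both groups, were enriched by negative selection, and received 200 µl of medium, 10% of the supplement labelled LDS and antibodies to CD3 and CD28 at 2 µg/ml. How the knockout was made, whether the tumour cells were 1 clone, and how many mice gave T cells are details the labels leave out. RNA was counted with the nCounter Myeloid Innate Immunity panel, which counts barcoded probes on each transcript without amplification. Nothing states that the 4 samples of a group came from separate mice or cultures, so the p-values cover only the spread among these 8 samples, part of which may be technical.

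Il1rl1 encodes ST2, the receptor chain that binds the alarmin IL-33. With the shared chain IL1RAP it signals through MYD88 to NF-kappaB and MAP kinases, and in type 2 helper T cells, group 2 innate lymphoid cells, mast cells and a subset of regulatory T cells this leads to IL-13 and amphiregulin. IL-4 and IL-13 act through the IL-4 receptor alpha chain and STAT6, which raises GATA3, the master factor of the type 2 programme. In activated CD8 T cells IL-33 is known as a co-stimulus of effector responses, and Il1rl1 is also transcribed outside the immune system, among others in fibroblasts.

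The mouse Il1rl1 gene is listed with 2 transcription starts in the RefSeq annotation of GRCm38.p6. As background, the upstream start is known from mast cells and type 2 helper T cells, where GATA factors act on it, and the downstream start is known from fibroblasts. The probe counts do not tell the starts apart. The 250 bases before each start are shown because Il1rl1 carried the largest difference of the 9 genes and because 2 of the other members encode GATA factors. Capitals mark the GATA motif, searched on both strands as AGATAA, with its first base also allowed to be T and its last base also allowed to be G. The 2 windows are chr1:40429320-40429569 and chr1:40439379-40439628, both on the plus strand of GRCm38.p6.
Il1rl1, upstream start: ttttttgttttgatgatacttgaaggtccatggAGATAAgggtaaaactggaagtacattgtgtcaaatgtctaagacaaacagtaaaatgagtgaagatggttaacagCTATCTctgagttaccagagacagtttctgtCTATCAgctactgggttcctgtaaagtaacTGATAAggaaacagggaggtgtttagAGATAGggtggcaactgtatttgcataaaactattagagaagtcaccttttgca
Il1rl1, downstream start: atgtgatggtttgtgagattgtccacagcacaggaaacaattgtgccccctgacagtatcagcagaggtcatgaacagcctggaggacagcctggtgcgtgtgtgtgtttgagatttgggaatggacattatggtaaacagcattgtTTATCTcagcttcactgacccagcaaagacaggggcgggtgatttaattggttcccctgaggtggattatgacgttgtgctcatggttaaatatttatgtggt

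The upstream window held 5 GATA matches, beginning 217, 141, 110, 80 and 54 bases before the start, and the downstream window held 1, beginning 103 bases before it. Of 32851 windows of the same length in the RefSeq table, 26.5% held at least 1 match and 0.0426%, or 14 windows, held 5 or more. Il13 and Il3 held 1 match each, and no match was found in the windows of Areg, Gata3, Gata2, Il4ra, Stat6 and Nfil3. Il13 is shown because its GATA site lies in a promoter that GATA3 is known to bind, and Areg because it was the other tested member with a lower level in KO medium. In Areg the capitals mark TGACGTCA, a cAMP response element, which was searched for after the sequence had been read and was found in 1.55% of all windows. The windows are chr11:53634703-53634952 on the minus strand and chr5:91139349-91139598 on the plus strand of GRCm38.p6.
Il13: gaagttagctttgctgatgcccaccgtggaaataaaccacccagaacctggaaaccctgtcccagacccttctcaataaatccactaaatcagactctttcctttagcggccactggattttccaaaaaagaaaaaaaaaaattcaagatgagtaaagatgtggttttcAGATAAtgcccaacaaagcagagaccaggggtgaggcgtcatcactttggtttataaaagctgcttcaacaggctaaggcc
Areg: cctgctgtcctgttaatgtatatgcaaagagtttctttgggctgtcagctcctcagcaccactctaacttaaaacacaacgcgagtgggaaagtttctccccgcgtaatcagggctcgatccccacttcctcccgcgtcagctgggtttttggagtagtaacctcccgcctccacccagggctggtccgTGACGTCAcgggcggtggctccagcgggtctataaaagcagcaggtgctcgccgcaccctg

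Of STAT motifs, only TTC and GAA with any 4 bases between them was searched, and no other spacing. It was held by 5.85% of all windows and was in none of the 11 windows of the 9 genes. TTACGTAA or TTATGTAA, bound by NFIL3 (in 0.931% of all windows), and TGAGTCA or TGACTCA, the AP-1 motif (in 4.46%), were not found there either. None of the matches overlapped another. These are matches of letters and say nothing of binding in these cells.

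Values are the authors' normalized signals, given with SD and n = 4 per medium, and the depth behind them was 188174 to 320804 recovered counts in KO medium and 259954 to 346676 in WT medium. A background threshold of 22.1 was set at the mean plus 2 SD of all negative control counts, and 454 genes whose mean over the 8 samples reached it were tested. The control counts were left unscaled, whereas the gene values carry a factor per sample of 0.792 to 1.33. With scaled controls the threshold would differ by sample, so fold differences from values raised to it are not strict minimums. All members but Gata2 were among them. Differences are KO medium minus WT medium on the scale of log2(value + 1), fitted with limma, which understates the change of low genes. Since the members were chosen with this contrast known, their differences are given as a description, without p-values. Of the 8 tested members, 5 passed an adjusted p of 0.05, against 71.6% of all genes tested. Of these, 3 were higher (46.9% of all genes) and 2 were lower (24.7%) in KO medium. The median difference of the 8 was 0.16, and it was 0.41 over all 454 genes. The values of the media did not overlap for the same 5 genes, where 68.1% of all genes tested did not overlap. Nothing is read from these shares, since the contrast chose the members. The plot of values by sample shows each of them.

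**Figure D1:**
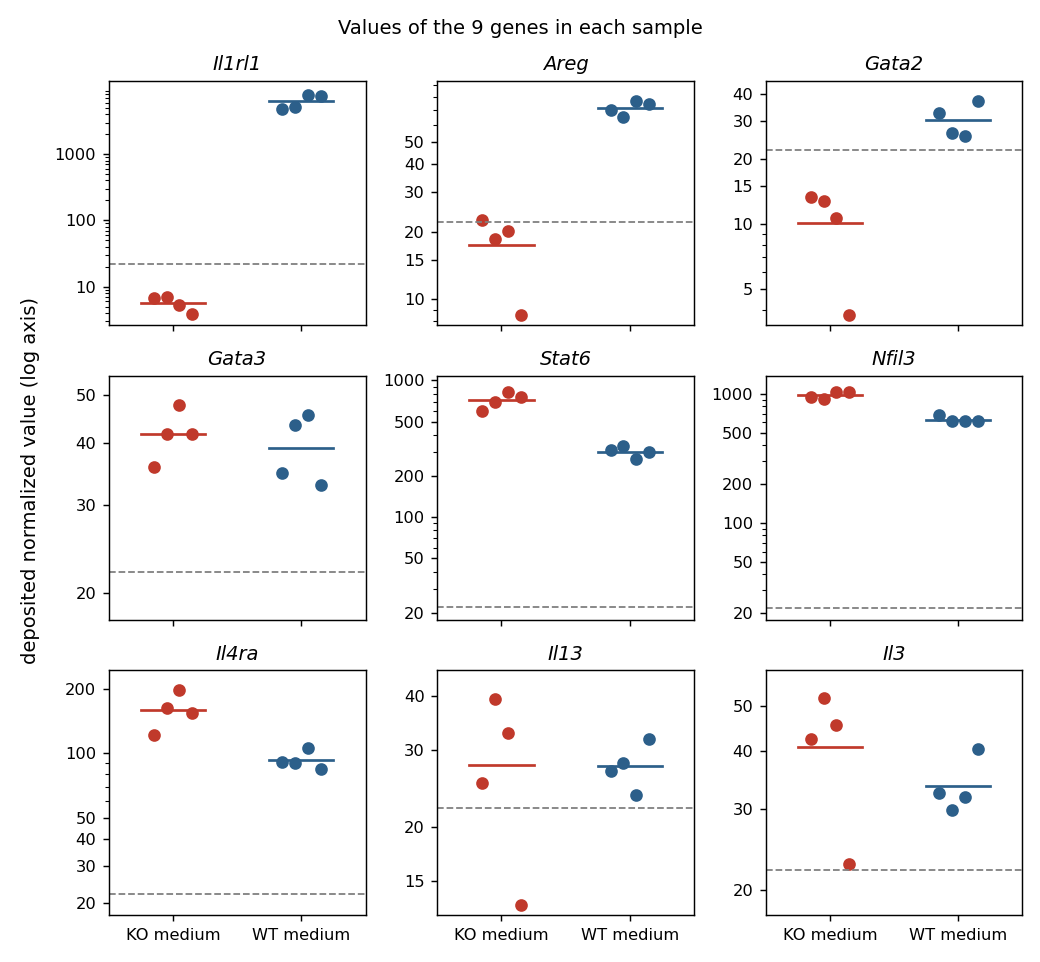
Deposited normalized values (log axis) of the 9 genes in the 4 KO medium samples (red) and the 4 WT medium samples (blue), numbered 1 to 4 from left to right in each group, with the group mean as a bar and the background threshold of 22.1 dashed. Il1rl1 is at 6.95 or less in every KO medium sample and at 4869 or more in every WT medium sample, while Gata3, Il13 and Il3 overlap between the media.

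Il1rl1, the IL-33 receptor, stood at 6.64, 6.95, 5.30 and 3.79 in KO medium samples 1 to 4, against 4869, 5195, 7888 and 7516 in WT medium samples 1 to 4. It was thus abundant in all 4 WT medium samples and below the background threshold in all 4 KO medium samples. In KO medium its recovered counts were 5, 6, 5 and 4, each below the mean of that sample's 8 negative control probes, which was 6.88, 8.13, 11.8 and 6.13. The means were 5.67 ± 1.44 in KO medium and 6367 ± 1555 in WT medium. With KO medium values raised to the threshold, Il1rl1 was 269.7-fold lower in KO medium. It was lower under all 22 alternative settings, which the size of the difference fixed in advance, so this is no check. The plot of ranked differences shows it at the lower end of the 454 tested genes, where values below the threshold in KO medium give neither an exact size nor an order among genes.

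**Figure D2:**
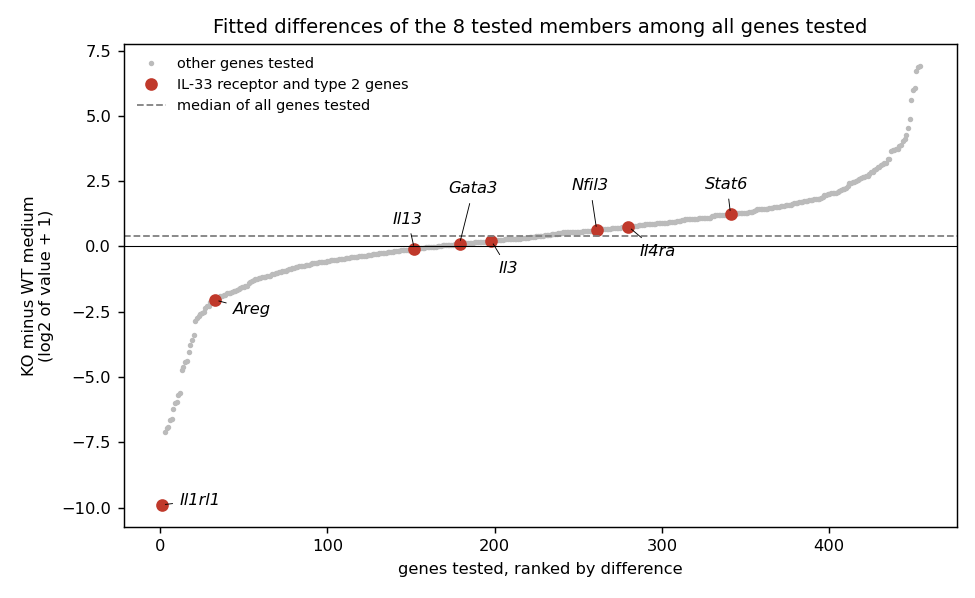
Fitted difference, KO medium minus WT medium, of log2(value + 1) for the 454 genes tested, ranked from lowest to highest, with the 8 tested members in red and the median of all genes (0.41) dashed. Il1rl1 lies at the lower end, Areg is at rank 33, and the other 6 lie in the middle of the range.

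Within WT medium, Il1rl1 was not uniform. Its mean was 7702 in samples 3 and 4 and 5032 in samples 1 and 2, a ratio of 1.53. Its coefficient of variation there was 24.4%, where counting error alone would give 1.20%. Samples 3 and 4 of each medium also stand apart from samples 1 and 2 in many other genes, and what the numbers mark is not stated in the labels. The other members showed ratios of 0.878 to 1.16 between these samples of WT medium.

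By root mean square difference of centred log2 profiles over the 8 samples, with values raised to the background threshold, the 3 genes most like Il1rl1 were Cd34, Ptgs2 and Kitl. Cd34, a surface sialomucin of progenitors and endothelium, differed by 0.30, Ptgs2, the inducible cyclooxygenase, by 1.02 and Kitl, stem cell factor, by 1.095. The KO medium values of these genes were all below the threshold, so the likeness there reflects the threshold. In WT medium the profiles were not the same. Cd34 had a ratio of samples 3 and 4 to samples 1 and 2 of 0.965, whereas Ptgs2 had 1.63 and Kitl 1.25, as the plot of these 4 genes shows.

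**Figure D3:**
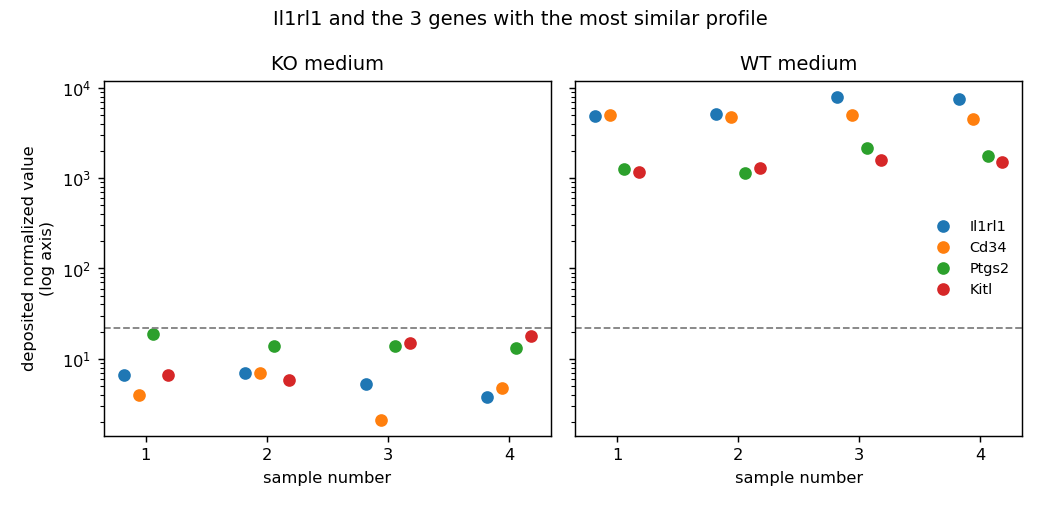
Deposited normalized values (log axis) of Il1rl1, Cd34, Ptgs2 and Kitl by sample number in KO medium (left) and WT medium (right), points offset sideways by gene, with the background threshold of 22.1 dashed. All 4 genes lie below the threshold in KO medium, and Il1rl1 and Ptgs2 are higher in samples 3 and 4 than in samples 1 and 2 of WT medium.

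Markers of fibroblasts and mesenchymal cells and of T cells also differed between the media. The 7 measured markers of fibroblasts and mesenchymal cells, of a list of 13, summed to 58.8 to 96.1 in KO medium and to 6644 to 7653 in WT medium, most of the WT medium sum being Cd34. Of the 6 tested, 5 fell and 1, the PDGF receptor gene Pdgfrb, rose (limma adjusted p = 0.015), and Col1a2 was below the mean needed for a test. The 4 measured T cell genes of a list of 14, Cd247, Fyn, Cd27 and Ptprc, all rose, with sums of 1441 to 2111 in KO medium and 684 to 956 in WT medium. Of 4 measured endothelial markers, Cdh5 and Flt1 were below the threshold in all 8 samples, and Angpt2, the only marker tested, rose. Of 9 measured macrophage and monocyte markers, 5 were below it in all 8 samples. Of the 3 tested only Cd68 passed, as lower. The part of these shifts in the difference of Il1rl1 was not tested. Cd8a, Cd8b1, Cd3d, Cd3e and Cd3g, which would define the labelled cell type, and all 8 melanoma markers of the list were not found among the 754 genes measured. In bulk RNA of this kind, fewer cells of a type and less RNA per cell cannot be told apart.

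Markers of cells that commonly carry ST2 were at background for the most part in the mast cell, basophil and eosinophil lists, and above it for single genes of other lists. Of 9 measured mast cell and basophil markers, 8 were below the background threshold in all 8 samples, among them Kit, Cpa3, Fcer1a, Ms4a2, Hdc, Tpsb2 and Cma1, and none of the 8 exceeded 12.7. The ninth, the prostaglandin D synthase gene Hpgds, rose, with values of 130 to 153 in KO medium and 18.1 to 32.5 in WT medium, within list sums of 170 to 189 in KO medium and 38.3 to 59.2 in WT medium. All 5 measured eosinophil markers were below the threshold in every sample, at 7.97 or less. Of the list for group 2 innate lymphoid cells only Icos and Arg1 were measured. Icos, a co-stimulatory receptor, was 110 ± 40.3 in KO medium and 65.2 ± 44.9 in WT medium (limma adjusted p = 0.119). Of 6 markers of regulatory and CD4 T cells 2 were measured, with sums of 151 to 218.5 in KO medium and 58.6 to 86.5 in WT medium. Ctla4, an inhibitory receptor that activated CD8 T cells also carry, was 150 to 211 in KO medium and 56.2 to 85.5 in WT medium and rose (limma adjusted p = 7.39e-05), while Cd40lg was below the threshold in every sample. The part of these genes in the difference of Il1rl1 was not tested.

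Areg, which encodes amphiregulin, a ligand of the EGF receptor made by many ST2-bearing cells, was 22.6, 18.5, 20.2 and 8.53 in KO medium samples 1 to 4, against 69.7, 65.2, 76.4 and 74.4 in WT medium samples 1 to 4. The media did not overlap, and only KO medium sample 1 reached the background threshold among the KO medium samples. The means were 17.4 ± 6.17 in KO medium and 71.4 ± 5.03 in WT medium. With KO medium values raised to the threshold, Areg was 3.12-fold lower in KO medium. In KO medium the values rest on 9 to 19 counts, with 17 in sample 1. The fitted difference of -2.05 (SE 0.29) lay between -3.20 and -1.60 over 22 alternatives. The genes most like Areg in profile were the growth regulator Myc, Gata6, another GATA factor gene, and Mcm5, a subunit of the replication helicase, at root mean square differences of 0.073, 0.11 and 0.13. Gata6 was 1.16 to 2.66 in KO medium samples 1 to 3, listed at 1 in sample 4, and 60.96 to 68.1 in WT medium, and since 3 of the 4 KO medium values of Areg were raised to the threshold, the likeness of all 3 genes also reflects it.

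Among the transcription factors, Gata2, a factor of haematopoietic progenitors and mast cells, was 13.3, 12.7, 10.6 and 3.79 in KO medium samples 1 to 4, against 32.5, 26.2, 25.5 and 37.2 in WT medium samples 1 to 4. Every WT medium value was above the background threshold and every KO medium value below it. The means were 10.1 ± 4.36 in KO medium and 30.3 ± 5.54 in WT medium. With KO medium values raised to the threshold, Gata2 was 1.34-fold lower in KO medium. Its mean over all samples, 20.2, kept it out of the test. With no filter it was fitted at -1.60 and was among the 15.6% of 754 genes that passed as lower. These values lie close to the noise of the assay, since the highest negative control probe in a sample, scaled as the genes were, stood at 12.3 to 30.1 in KO medium and at 17.4 to 27.2 in WT medium.

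Gata3, the lineage factor of type 2 helper T cells that CD8 T cells also express, was 35.9, 41.7, 47.7 and 41.7 in KO medium, against 34.8, 43.4, 45.5 and 32.9 in WT medium. The media overlapped throughout. The means were 41.7 ± 4.84 in KO medium and 39.2 ± 6.21 in WT medium, a fitted difference of 0.10 (SE 0.18). Its coefficient of variation, 11.6% in KO medium and 15.9% in WT medium, was near the 16.2% and 15.2% that counting error alone would give, so a difference within this spread was not detectable at this depth.

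Stat6, the factor that IL-4 and IL-13 activate, was 600, 691, 821 and 757 in KO medium samples 1 to 4, against 310, 334, 267 and 298 in WT medium samples 1 to 4. The lowest KO medium sample was well above the highest WT medium sample. The means were 717 ± 94.3 in KO medium and 302 ± 27.6 in WT medium, a fitted difference of 1.24 (SE 0.12), or 2.36-fold. Closest in profile were the p38 MAP kinase gene Mapk14, the Toll-like receptor gene Tlr1 and the metalloproteinase gene Adamts12, at root mean square differences of 0.067, 0.099 and 0.14.

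Nfil3, a basic leucine zipper factor that takes part in type 2 cytokine and innate lymphoid programmes, was 938, 912, 1033 and 1026 in KO medium, against 681, 610, 620 and 612 in WT medium. The media did not overlap, and the values within a medium lay close together. The means were 977 ± 61.1 in KO medium and 631 ± 33.8 in WT medium, a fitted difference of 0.63 (SE 0.08), or 1.55-fold. Among the genes most like it were Ppia, which encodes cyclophilin A, and the kinase gene Map2k1, at 0.078 and 0.083.

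Il4ra, the shared signalling chain of the IL-4 and IL-13 receptors, was 122, 163, 198 and 154 in KO medium, against 91.1, 90.5, 106 and 85.0 in WT medium. The lowest KO medium value, in sample 1, was above every WT medium value. The means were 160 ± 31.3 in KO medium and 93.0 ± 8.78 in WT medium, a fitted difference of 0.76 (SE 0.16), or 1.69-fold. The integrin gene Itgb7, Rictor, a subunit of the mTORC2 complex, and the adhesion molecule gene Icam1 were closest in profile, at 0.096, 0.12 and 0.13.

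The cytokine members were low in both media. Il13, the effector cytokine of type 2 responses, was 25.2, 39.4, 32.9 and 13.3 in KO medium, against 26.9, 28.1, 23.7 and 31.9 in WT medium. The means were 27.7 ± 11.2 in KO medium and 27.6 ± 3.40 in WT medium, a fitted difference of -0.09 (SE 0.32). Il3, a growth factor of mast cells and basophils that activated T cells make, was 42.5, 52.1, 45.6 and 22.8 in KO medium, against 32.5, 29.9, 31.8 and 40.4 in WT medium. The means were 40.7 ± 12.6 in KO medium and 33.6 ± 4.63 in WT medium, a fitted difference of 0.22 (SE 0.27). Both overlapped between the media. The highest scaled negative control of any sample, 30.1, lay above 2 of the KO medium values and 3 of the WT medium values of Il13, and above 1 value of Il3 in each medium. KO medium sample 4 had the lowest value of all 8 samples for Il13, Il3, Areg, Gata2 and Il1rl1. The same sample had the lowest negative control sum, 49 counts, against 55, 65 and 94 in KO medium samples 1 to 3 and 68 to 85 in WT medium, and its part in these low values was not tested. Without KO medium sample 4 the difference of Il3 was 0.47 and passed as higher, as did 44.9% of all genes, and that of Il13 was 0.21. The profiles most like these 2 and Gata3 were those of other low or little changed genes, among them Icosl and Hdac3 for Il13, Nr1h3, Itgam and Nod2 for Il3, and Rasal1, Prdx1 and Tnfsf4 for Gata3, at 0.12 to 0.21.

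The direction of several members depended on how the samples were scaled. The median difference of all genes, 0.41 with the deposited scaling, was 0.02 with median scaling, 0.11 with quantile normalization, 0.26 with positive controls alone, -0.07 with edgeR and TMM, 0.00 with DESeq2 and -0.78 under scaling to the 4 T cell genes Ptprc, Cd247, Cd27 and Fyn. Relative to that median, Areg stood at -2.46, Il13 at -0.50, Gata3 at -0.32, Il3 at -0.19, Nfil3 at 0.22, Il4ra at 0.34 and Stat6 at 0.83. Of the 6 other scalings, all but quantile normalization apply 1 factor per sample, which shifts all genes nearly alike. That these relative differences kept their signs under those scalings was thus fixed in advance and is no check. Under quantile normalization, which could have changed them, the signs were also kept, from -2.50 for Areg to 0.95 for Stat6. Gata3, at 0.10 as deposited, was negative under all 6 other scalings, from -1.08 with T cell genes to -0.05 with positive controls alone. Il3, at 0.22 as deposited, was negative under all of them but positive controls alone (0.07). Of these fits, only that scaled to T cell genes passed either gene as lower. Scaled to T cell genes, Il4ra and Nfil3 turned from higher to lower in KO medium, at -0.44 and -0.57, while Stat6 was at 0.04. In that fit 7 of the 8 tested members passed as lower, all but Stat6, as did 58.8% of all genes tested. With edgeR and TMM Il4ra and Nfil3 no longer passed as higher, which 32.8% of all genes did, and Nfil3 did not with median scaling (33.5%) or DESeq2 (34.4%) either. Areg was lower under every scaling, as the plot of scalings shows. So was Il1rl1, where the size of the difference left no other outcome.

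**Figure D4:**
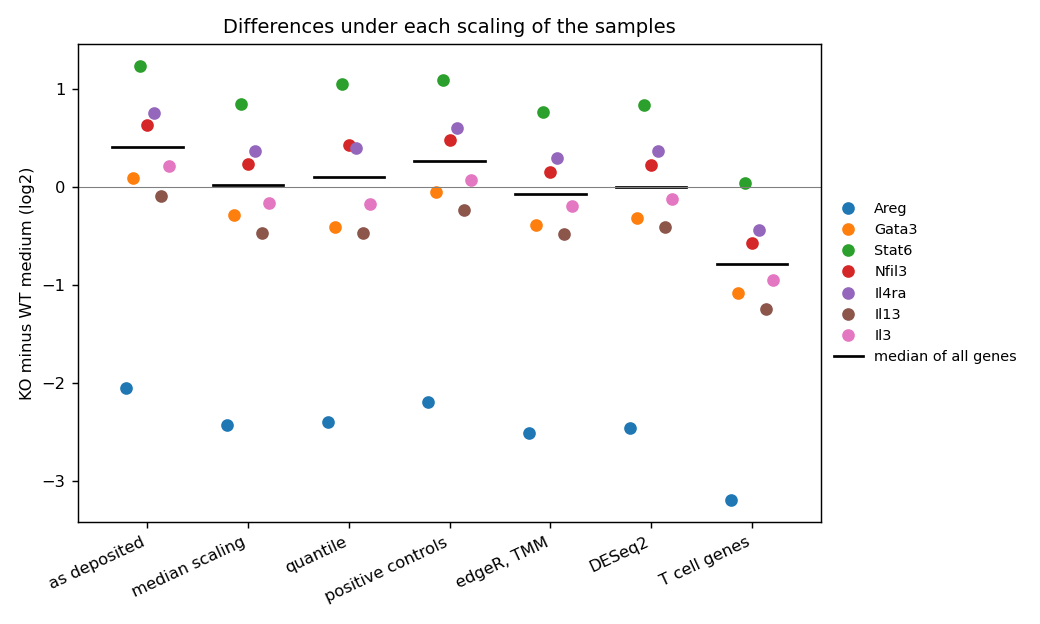
Difference, KO medium minus WT medium (log2), of the tested members other than Il1rl1 under the deposited scaling and 6 others, with the median of all genes tested as a black bar. The bar runs from 0.41 as deposited to -0.78 under scaling to 4 T cell genes. Except under quantile normalization, a scaling moves the members and the bar together, so their places around it are kept by construction.

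The other genes of the pathway were taken from 6 lists of 87 genes in all, of which 45 were measured and 16 tested. In these tests 7 were higher and 3 lower in KO medium, and 6 did not pass, against 71.6% passing over all genes. The median of the 16 differences was 0.31, beside 0.41 over all genes. The plot of pathway genes shows them.

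**Figure D5:**
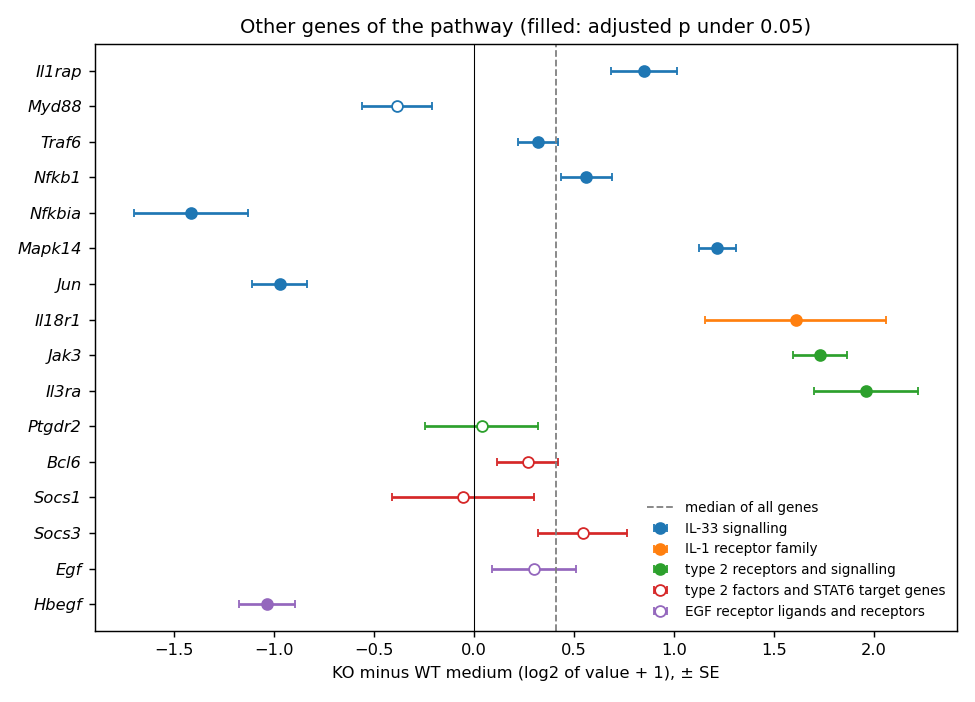
Fitted difference, KO medium minus WT medium, of log2(value + 1) with its SE (bars) for the 16 tested pathway genes, coloured by list, filled where the adjusted p was under 0.05, with the median of all genes (0.41) dashed. Il3ra, Jak3 and Il18r1 lie highest, and Nfkbia, Hbegf and Jun lowest.

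The transcript of IL-33 itself stayed under background, and the partner chain of its receptor rose. Il33, the ligand, was 5.47 ± 2.71 in KO medium and 12.4 ± 4.73 in WT medium, below the threshold in every sample and untested. Il1rap, the shared co-receptor chain, was 120, 123, 140 and 136 in KO medium, against 91.9, 76.9, 60.96 and 59.5 in WT medium, with no overlap. It rose by 0.85 (SE 0.16, limma adjusted p = 0.00146), although it stood at -0.34 when scaled to T cell genes and lost its call under 6 of 22 alternatives, with adjusted p up to 0.236.

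Of 7 tested genes of the IL-33 signalling list 4 rose, the receptor chain gene Il1rap among them, 2 fell and 1 did not pass. Over all genes tested 46.9% were higher and 24.7% lower. Mapk14, the p38 kinase, rose by 1.22 (SE 0.09, limma adjusted p = 4.6e-06), a call lost when scaled to T cell genes. Nfkbia, the inhibitor of NF-kappaB that is itself a target of this pathway, was 42.5, 62.5, 55.2 and 59.7 in KO medium, against 204, 214, 102 and 104 in WT medium, and fell by 1.42 on the log2 scale (SE 0.28, limma adjusted p = 0.00178). Its WT medium values split between samples 1 and 2 and samples 3 and 4 in the direction opposite to those of Il1rl1. Jun, an AP-1 subunit, fell by 0.97 (SE 0.14, limma adjusted p = 0.000247). Both falls held under all 22 alternatives. The remaining genes, named after their values were seen, were Nfkb1, Traf6 and Myd88. Nfkb1, an NF-kappaB subunit, rose by 0.56 (limma adjusted p = 0.00317), a call lost under 6 of 22 alternatives. Traf6, an adaptor, rose by 0.32 (limma adjusted p = 0.0185) but was lower under median, T cell gene, TMM and DESeq2 scaling, and lost its call under 8 of 22 alternatives. Myd88, the adaptor of the receptor, was 98.0 ± 19.5 in KO medium and 127 ± 18.5 in WT medium (limma adjusted p = 0.0793), and passed as lower under 8 of 22 alternatives. These were median scaling (-0.78), quantile normalization (-0.77), TMM (-0.86), DESeq2 (-0.78), T cell gene scaling (-1.58), the replicate block (limma adjusted p = 0.0493), the fit without KO medium sample 3 (limma adjusted p = 0.0277) and samples 1 and 2 alone (limma adjusted p = 0.0458). With neighbouring samples averaged its limma adjusted p was 0.232.

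Il1rl1 lies on mouse chromosome 1 in a cluster of IL-1 receptor family genes, between Il1rl2 and Il18r1 among protein-coding genes of GRCm38.p6. Of the 3 measured genes of the family around it, 1 rose and 2 were too low to test. Il18r1, the IL-18 receptor chain next to it, was 90.3, 127, 296 and 223 in KO medium, against 42.0, 33.5, 109 and 54.2 in WT medium. It rose by 1.61 (SE 0.45, limma adjusted p = 0.0108), although WT medium sample 3 exceeded KO medium sample 1, and the call was lost under T cell gene scaling and when neighbouring samples were averaged into 2 values per medium (limma adjusted p up to 0.246). Il1r1, the IL-1 receptor, was 3.94 ± 1.59 in KO medium and 10.9 ± 2.40 in WT medium, and Il1r2, the decoy receptor, 7.51 ± 3.05 in KO medium and 7.06 ± 1.32 in WT medium. Both were below the threshold in every sample and untested.

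None of the 8 measured genes of the list of type 2 cytokines and inducers could be tested. Il4, which lies next to Il13 on chromosome 11, was 3.99, 2.32, 4.24 and 6.63 in KO medium, against 1.00, 3.62, 2.73 and 6.38 in WT medium, all below the threshold, and Il5, 2 genes from Il13 on its other side, stayed at 5.30 or less. Csf2, the GM-CSF gene next to Il3, was 14.6, 34.7, 26.5 and 13.3 in KO medium, against 17.4, 18.1, 18.2 and 19.1 in WT medium, so that 2 KO medium samples exceeded the threshold.

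Of 3 tested type 2 receptor and signalling genes 2 rose, against 46.9% of all genes tested. Il3ra, the receptor chain for IL-3, was 81.0, 98.4, 162 and 125 in KO medium, against 21.4, 36.2, 33.7 and 24.4 in WT medium, and rose by 1.96 (SE 0.26, limma adjusted p = 0.000162). Jak3, the kinase of the common gamma chain, was 241 ± 37.3 in KO medium and 71.4 ± 3.74 in WT medium and rose by 1.73 (SE 0.13, limma adjusted p = 4.71e-06). Both calls held under all 22 alternatives, at 0.78 to 2.36 for Il3ra and 0.54 to 1.95 for Jak3. Ptgdr2, the prostaglandin D2 receptor of type 2 cells, was 24.0 ± 6.58 in KO medium and 23.4 ± 7.002 in WT medium (limma adjusted p = 0.914), and was lower, with an adjusted p of 0.0109, when scaled to T cell genes.

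Among factors and STAT6 target genes 16 were measured and 3 tested, none of which passed in the main limma fit on medium alone, with edgeR or with DESeq2 (Socs3 alone had an unadjusted p under 0.05 in the main limma fit). All 3 passed as lower under T cell gene scaling, as did 58.8% of all genes tested. Bcl6, a repressor of the type 2 programme, was 99.5 ± 16.7 in KO medium and 81.9 ± 8.16 in WT medium (limma adjusted p = 0.148). The cytokine signalling inhibitors Socs1 and Socs3 were at -0.05 (SE 0.36) and 0.54 (SE 0.22), with limma adjusted p of 0.901 and 0.0548. Socs3 passed as higher with the replicate block (limma adjusted p = 0.0162), without KO medium sample 1 (limma adjusted p = 0.0181) and with samples 3 and 4 alone (limma adjusted p = 0.0125). The STAT6 target genes of myeloid cells Ccl17, Ccl22, Ccl24, Retnla, Chil3 and Mrc1, named after their values were seen, were below the threshold in every sample. Arg1, of the same list, exceeded it in KO medium samples 2 and 3, at 28.9 and 24.4, and was 12.8 to 18.1 in WT medium. Irf4 exceeded it in KO medium samples 2 to 4, at 24.3, 38.2 and 22.8, and was 7.13 to 15.9 in WT medium. Both were untested. Of the EGF receptor ligands, Hbegf was 83.7, 75.3, 91.2 and 63.5 in KO medium, against 154, 151, 175 and 162 in WT medium, and fell by 1.03 (SE 0.14, limma adjusted p = 0.000164), like Areg with no overlap, and under all 22 alternatives. Egf was 42.4 ± 5.26 in KO medium and 34.8 ± 8.07 in WT medium (limma adjusted p = 0.23), and was lower when scaled to T cell genes.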

How the data were processed

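Total RNA of 8 samples, 4 per medium, was measured with the nCounter Myeloid Innate Immunity panel, per the labels' protocols. The authors deposited 1 table of normalized signal for 754 genes with 14 control probes (6 positive, 8 negative) left as whole counts, and the software and normalization behind it are not stated in the labels. The gene values of a sample proved to be multiples of 1 factor (0.792 to 1.33), whole within 0.1 of a step for 99.87% or more of those above 1, with smaller values set to 1. Dividing by the factor gave whole counts. All pairs of samples within a medium differed beyond counting noise, so none was taken as a repeat deposit of another. Chi-square per degree of freedom was 2.12 to 5.01 within samples 1 and 2 or 3 and 4, and 9.61 to 66.7 across them. Each sample was kept as labelled, which does not show that they are independent; with neighbours averaged, 224 genes passed, against 325.

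Genes with a mean of at least 22.1 entered a limma 3.58.1 fit (R 4.3.3, eBayes with trend) of log2(value + 1) on medium alone, two-sided and with Benjamini-Hochberg adjustment over the 454 genes at a threshold of 0.05. Alternatives were a pseudocount of 10, other filters and scalings, edgeR 4.0.16 and DESeq2 1.42.0 on the recovered counts, a replicate block, left-out samples and, added after the data were seen, subtraction of negative controls and samples 1 and 2 or 3 and 4 alone. The members, lists and tests were chosen with earlier results of these data known. Named were the members, the IL-1 receptor family, up to 4 genes of each other list with the smallest p, and the 3 genes nearest in profile to each tested member, of which 2 are not reported here. As a check of pairing, correlations across genes (not independent replicates) of deviations from the medium mean were 0.454, 0.296, 0.465 and 0.197 for sample numbers 1 to 4. Unlike numbers within samples 1 and 2 or within samples 3 and 4 gave 0.255 to 0.424, and only 5 of 8 samples were most like the sample of the same number. The check therefore cannot tell pairing by number from the split between samples 1 and 2 and samples 3 and 4. Pairing entered the replicate block alone, not the main fit. The 9 members matched current RefSeq symbols of GRCm38.p6.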

Additional observations from a re-analysis of the deposited data

Results flagged for a closer look

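In WT medium, Nfil3 was 681 in sample 1 and 610, 612 and 620 in the other 3 samples, so the gap between sample 1 and its nearest neighbour took up most of the range of the group. Of 50 groups of 4 values looked at, for the members and the tested pathway genes, it was the only one with a gap this wide, and chance gives about 5% of groups. Without this sample the difference of Nfil3 was 0.67, against 0.63 with all samples.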

How the results depend on the processing

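Counts of members higher and lower in KO medium, 3 and 2 with the deposited scaling, were 0 and 7 under T cell gene scaling, and 1 was higher with edgeR and TMM. Of all genes, 213 were higher and 112 lower, but 66 and 267 under that scaling. The share of calls that were higher was 65.5% as deposited, 50.7% with median scaling, 55.0% with quantile normalization, 48.2% with TMM, 50.6% with DESeq2 and 19.8% with T cell genes. Of pathway genes, 7 were higher and 3 lower, but 2 and 11 under it, and 4 were higher with median scaling, TMM or DESeq2 and 3 when neighbouring samples (1 with 2, 3 with 4) were averaged. Scaling to T cell genes turned Il4ra to -0.44, Nfil3 to -0.57, Il1rap to -0.34, Traf6 to -0.88, Nfkb1 to -0.64, Ptgdr2 to -1.11, Bcl6 to -0.92, Socs3 to -0.65 and Egf to -0.87. Gata3 and Il3, which had not passed as deposited, turned to -1.08 and -0.95. Traf6 was also at -0.074 with median scaling, -0.15 with TMM and -0.078 with DESeq2. The cause was not tested beyond the shift of the median that each scaling makes. With the replicate number as a block the same 5 members passed, and of the pathway genes Myd88 and Socs3 gained a call. Of 173 member values under alternatives, 132 moved by less than 1 SD of the replicates. These include the other filters, the replicate block and the averaged neighbours, which leave the fitted difference unchanged by design, so the count overstates stability. The low counts of Gata3, Gata2, Il13 and Il3 limit what can be seen.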
